A study of Mus musculus with 4 samples.

Results

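The Kruppel-like and early growth response transcription factors of mouse lung fibroblasts are described here through the H3K4me3-marked contacts of their promoters. The set held 10 genes, the 7 Kruppel-like genes Klf2, Klf4, Klf5, Klf6, Klf9, Klf10 and Klf13 and the 3 early growth response genes Egr1, Egr2 and Egr3, out of 21646 coding promoters on the autosomes and the X chromosome. They were listed by family and name, with earlier results of these data known, and each was placed at the start site of its principal coding transcript in the GENCODE M21 annotation of mm10 (GRCm38). Every count below was made around those start sites.

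Kruppel-like factors (KLF) are zinc-finger proteins that bind GC boxes and CACCC elements, the same DNA that the SP factors bind, and so compete and cooperate at GC-rich promoters. KLF2, KLF4, KLF5 and KLF6 mostly recruit histone acetyltransferases and activate, whereas KLF9, KLF10 and KLF13 bind the SIN3A corepressor and mostly repress. EGR proteins are immediate early factors, made within minutes of serum or growth factor stimulation from genes that are held ready for transcription, and are restrained by the NAB1 and NAB2 corepressors. KLF10 was first described as an early gene induced by TGFB, and EGR1 is known as a mediator of collagen gene expression downstream of TGFB1.

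MLg cells, a mouse lung fibroblast line, gave 4 H3K4me3 HiChIP libraries, a method that ligates neighbouring DNA ends in fixed nuclei after MboI digestion and then enriches the ligated fragments with an antibody to H3K4me3, the histone mark of active promoters. The TGFB1 cells received TGFB1, the cytokine that drives fibroblasts towards myofibroblasts, at 5 ng/ml for 4 h, and the labels name no TGFB1 for the control cells (Ctrl). In the miR-9-LOF cells the microRNA miR-9 was blocked with an anti-miR-9 oligonucleotide at 60 nM, and the TGFB1+miR-9-LOF cells received both agents. All cells were harvested 24 h after transfection. By the study's methods the Ctrl and TGFB1 cells were transfected with a negative control anti-miR, also at 60 nM, although the labels of these samples name none. Each condition was 1 library of 1 cell line, with no replicate, so no difference between libraries could be tested, and every interval given is a 95% interval that covers counting error only.

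The libraries held between 10864558 and 15568047 valid pairs, of which 4793354 to 6692306 joined sites 20 kb to 2 Mb apart on 1 chromosome. They differed in how strongly the mark was enriched. The share of all pair ends that lay within 2 kb of a marked coding promoter was 12.03% in Ctrl, 8.87% with TGFB1, 5.43% with TGFB1+miR-9-LOF and 6.27% with miR-9-LOF. Where 4 values are listed without names below, they follow that order. A marked promoter was one with at least 4-fold the genome mean of ends within 2 kb, all libraries weighted alike, and 6806 promoters (31.4%) met this. Fibroblast markers were marked at 7 of 12 promoters, with Col1a1, Col5a1, Vim, Pdgfra, Pdgfrb, Twist1 and Prrx1 past the level and Col1a2, Col3a1, Fn1, Thy1 and Dcn below it. None of 7 epithelial, 6 endothelial and 6 leukocyte marker promoters was marked. Summed over the 12 fibroblast promoters, Ctrl held 164 RPM (pair ends per 1000000 ends of the library), against 16.7 over the epithelial, 10.5 over the endothelial and 15.2 over the leukocyte markers.

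The sequences of 5 members are printed to show the letters that a KLF protein could meet at a start site. RefSeq windows on GRCm38 from 250 bases before to 50 after the start matched Klf2, Klf4, Klf6, Klf9, Klf13 and Egr2. Klf5, Klf10, Egr1 and Egr3 are named only. The windows below run 5′ to 3′ along each gene's own strand, with every GC box (GGGCGG on either strand) and, in Egr2, the CArG box that binds serum response factor in capitals. They are shown because Klf2 and Klf4 stood at the low end and Klf6 and Klf9 at the high end of the contact levels given further on, while Egr2 was among the 4 highest in the libraries with miR-9 blocked. The intervals are chr8:72318812-72319111 for Klf2, chr4:55532426-55532725 (minus strand) for Klf4, chr13:5861239-5861538 for Klf6, chr19:23140976-23141275 for Klf9 and chr10:67537619-67537918 for Egr2.
Klf2: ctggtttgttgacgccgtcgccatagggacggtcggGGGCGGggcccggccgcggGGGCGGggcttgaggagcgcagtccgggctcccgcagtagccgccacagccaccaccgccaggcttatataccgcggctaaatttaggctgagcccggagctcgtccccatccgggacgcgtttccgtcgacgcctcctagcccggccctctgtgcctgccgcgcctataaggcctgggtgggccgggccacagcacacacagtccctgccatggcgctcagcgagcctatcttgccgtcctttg
Klf4: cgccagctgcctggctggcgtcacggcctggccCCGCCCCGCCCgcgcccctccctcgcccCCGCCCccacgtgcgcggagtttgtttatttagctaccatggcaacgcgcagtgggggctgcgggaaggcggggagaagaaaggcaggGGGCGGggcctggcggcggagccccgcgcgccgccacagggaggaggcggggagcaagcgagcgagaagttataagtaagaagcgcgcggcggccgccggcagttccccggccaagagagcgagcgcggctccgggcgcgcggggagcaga
Klf6: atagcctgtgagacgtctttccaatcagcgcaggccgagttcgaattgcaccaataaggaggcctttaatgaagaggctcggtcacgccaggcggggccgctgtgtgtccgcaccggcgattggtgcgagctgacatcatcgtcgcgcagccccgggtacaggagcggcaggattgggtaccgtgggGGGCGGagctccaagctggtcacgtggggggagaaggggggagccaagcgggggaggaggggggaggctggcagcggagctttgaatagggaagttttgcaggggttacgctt
Klf9: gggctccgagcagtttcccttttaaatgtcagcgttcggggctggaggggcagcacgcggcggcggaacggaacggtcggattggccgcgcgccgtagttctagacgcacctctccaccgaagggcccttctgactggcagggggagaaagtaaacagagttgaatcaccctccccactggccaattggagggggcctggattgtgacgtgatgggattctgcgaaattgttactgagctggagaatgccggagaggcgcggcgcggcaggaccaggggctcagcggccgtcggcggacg
Egr2: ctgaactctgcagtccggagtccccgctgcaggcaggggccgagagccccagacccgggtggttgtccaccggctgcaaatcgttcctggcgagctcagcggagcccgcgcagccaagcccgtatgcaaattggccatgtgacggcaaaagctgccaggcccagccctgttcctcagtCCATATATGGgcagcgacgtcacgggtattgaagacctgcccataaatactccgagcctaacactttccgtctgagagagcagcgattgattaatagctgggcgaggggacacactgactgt

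GC content was 69.3% in the Klf2 window, 74.3% in Klf4, 63.0% in Klf6, 63.3% in Klf9, 72.0% in Klf13 and 60.0% in Egr2, all above the median of 53.0% over 32619 promoter windows of the same length. The ratio of observed to expected CpG ran from 0.704 in Egr2 to 0.974 in Klf4, against a median of 0.387. Klf4 held 4 GC boxes, Klf13 held 3, Klf2 held 2 and Klf6 held 1, while the letters were not in the Klf9 and Egr2 windows. Of all windows 35.9% held a GC box. The EGR consensus GCGNGGGCG, which can overlap a GC box, was found in Klf2 and Klf4, as it was in 5.59% of all windows. CACCC on either strand was in the Klf2, Klf9, Klf13 and Egr2 windows and in 57.7% of all windows. The CArG box was in the Egr2 window alone among the 6, against 1.64% of all windows, and reads the same on both strands, so it was 1 site. TGACG, the core of the cAMP response element, was in the Klf2, Klf4, Klf9, Klf13 and Egr2 windows and in 20.9% of all windows. TATAAA and the full element TGACGTCA were in none of the 6, and in 13.7% and 1.80% of all windows. A match is a run of letters, and says nothing of whether a protein sat there.

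Of the 10 start sites 9 passed the marked level, all but Klf2. With all libraries weighted alike, those 9 stood at 4.90 (Klf4) to 10.5 (Klf9) times the genome mean within 2 kb, and Klf2 at 2.68. Klf4 owed its place to Ctrl (12.2 RPM) and TGFB1 (8.29 RPM). With miR-9 blocked it held 4.11 RPM with TGFB1 and 5.17 without, each below 4-fold the genome mean of 1.52 RPM. Counts from Ctrl thus entered the choice of marked promoters, which later serve as a reference for ratios over Ctrl. In Ctrl, 9 members were at least 2-fold above the median coding promoter in ends within 2 kb, where 36.6% of all promoters were. The same count was 9 with TGFB1 (31.5% of all promoters), 8 with TGFB1+miR-9-LOF (23%) and 8 with miR-9-LOF (26.5%). Against marked promoters alone the members were ordinary to somewhat high: their median was 5.86 times the median coding promoter in Ctrl, and that of all marked promoters 4.51. In TGFB1+miR-9-LOF those medians were 3.07 and 2.49.

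Among the activating KLF genes, Klf5, a growth-promoting factor of epithelium and remodelling vessels, carried the most ends. Klf5 (chr14:99298691-99315036) had 23.8 RPM in Ctrl, 17.4 with TGFB1, 11.4 with TGFB1+miR-9-LOF and 9.29 with miR-9-LOF. At Klf6 (chr13:5861482-5870394), a factor induced by injury in several tissues, the values were 19.7, 13.4, 7.34 and 8.16 in the same order. Klf4 (chr4:55527143-55532466), a factor of growth arrest and of pluripotency, was lower, with 12.2, 8.29, 4.11 and 5.17. Klf2 (chr8:72319033-72321656), which keeps endothelial cells and lymphocytes quiescent, held 5.93, 3.13, 3.08 and 4.11, beside library medians of 3.42, 3.22, 2.87 and 2.89. Every activating member was thus highest in Ctrl in RPM, as the library median was. Over all promoters the median log2 ratio of ends was -0.29 in TGFB1 over Ctrl and -0.52 in miR-9-LOF over Ctrl. Less the median promoter, the log2 ratio of ends in TGFB1 over Ctrl was -0.16 (-0.34 to 0.020) at Klf5, -0.27 (-0.48 to -0.066) at Klf6, -0.27 (-0.53 to -0.010) at Klf4 and -0.63 (-1.06 to -0.22) at Klf2, beside a median of -0.15 over marked promoters, so the Klf5 interval covered 0 on that scale.

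The SIN3A-binding members were all well marked. Klf9 (chr19:23141226-23168134), a gene induced by glucocorticoid and thyroid hormone, had 25.4 RPM in Ctrl, 16.9 with TGFB1, 9.997 with TGFB1+miR-9-LOF and 11.5 with miR-9-LOF. At Klf10 (chr15:38291463-38300706) they were 23.1, 17.2, 9.89 and 9.42. Klf13 (chr7:63886351-63938915), known from T cells and heart, held 17.4, 12.4, 7.44 and 8.81. The TGFB-induced gene of the set, Klf10, therefore had fewer ends (in RPM) in the TGFB1 library than in Ctrl, with intervals that did not overlap. All 9 others had fewer as well, and so did the median promoter, at a log2 ratio of -0.29. The share of all promoters with fewer ends was not counted. Less the median promoter the log2 ratio of ends in TGFB1 over Ctrl was -0.14 (-0.32 to 0.043) at Klf10 and -0.20 (-0.42 to 0.013) at Klf13, intervals that covered 0, and -0.30 (-0.48 to -0.12) at Klf9.

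Among the EGR promoters, Egr1 and Egr3 had overlapping intervals in Ctrl and Egr2 lay below both. Egr3 (chr14:70077203-70082614), a factor of T cells and muscle spindles, had 20.6 RPM in Ctrl, 17.4 with TGFB1, 10.3 with TGFB1+miR-9-LOF and 11.4 with miR-9-LOF. Egr1 had 20.3, 14.4, 8.54 and 9.35. Egr2 (chr10:67535475-67542188), the myelination factor also called Krox20, had 16.4, 12.7, 9.11 and 9.09, the smallest drop of the 3 from Ctrl to TGFB1+miR-9-LOF. Egr1 lies on chromosome 18 from 34859823 to 34864984.

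The mark spread unevenly around the start sites. Counting contiguous 1-kb bins with at least 4 times the genome mean, Klf6 had a domain of 5 kb, Klf9 of 4 kb, Klf5, Klf10, Egr1, Egr2 and Egr3 of 3 kb each, Klf13 of 2 kb, and Klf2 and Klf4 of 1 kb. The narrow Klf2 peak reached 10.5 times the genome mean in its highest 1-kb bin in Ctrl, 5.70 with TGFB1, 3.92 with TGFB1+miR-9-LOF and 5.67 with miR-9-LOF, so that the gene had a small peak although its 4-kb window fell short of the marked level. The highest bin of all members in Ctrl was that of Klf10, at 38.0 times the genome mean, followed by Egr3 at 34.5. Bins were not corrected for the number of MboI fragments they hold.

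**Figure D1:**
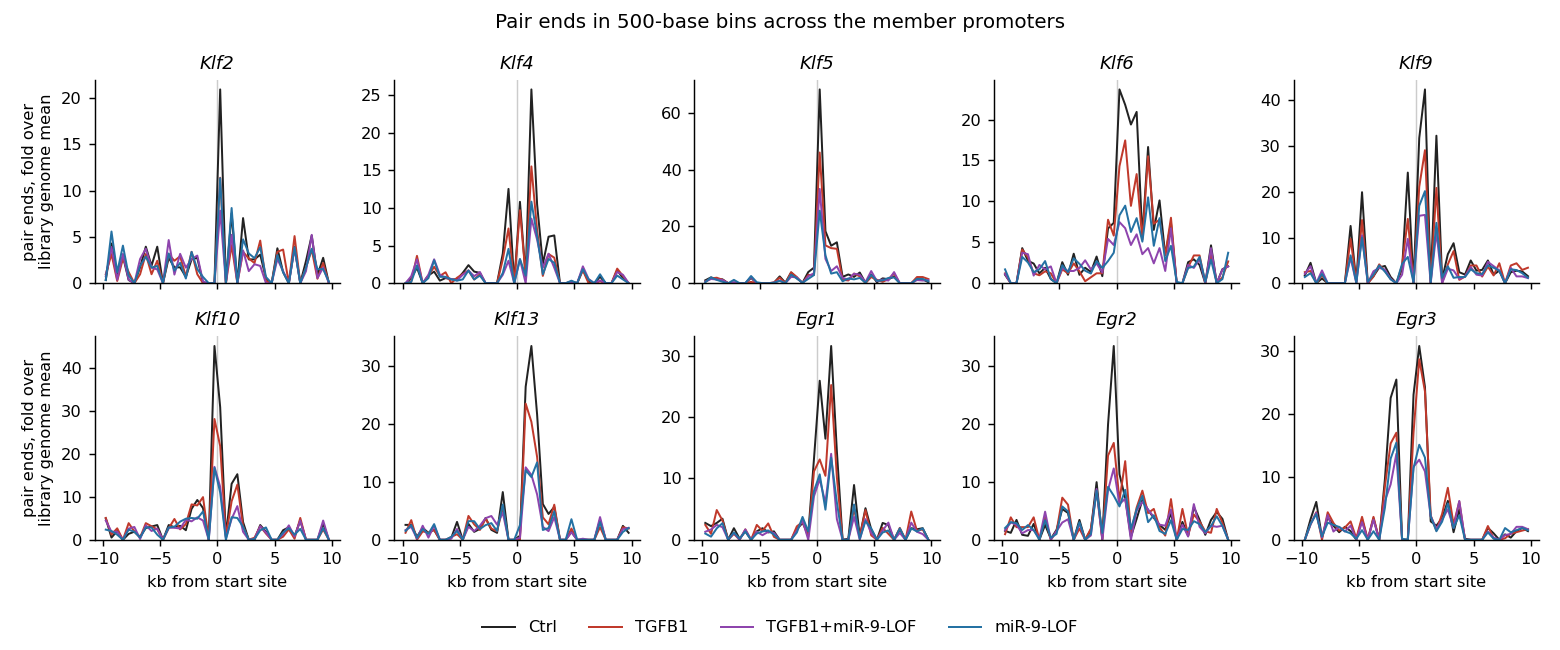
H3K4me3 HiChIP pair ends around the 10 start sites, in 500-base bins. The x axis is the distance from the start site in kb along the gene's strand, the y axis the bin's ends relative to the library's genome mean, and each line is 1 library. Ctrl (black) is the highest at each main peak, and the broadest domain is that of Klf6 (5 kb).

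Long-range contacts were counted as pairs 20 kb to 2 Mb apart with an end within 10 kb of the start site, in PPM (pairs per 1000000 such pairs of the library). In Ctrl, 9 of 10 members were at least 2-fold above the median coding promoter, where 18.6% of all promoters were. The count was 6 with TGFB1 (13.9% of all promoters), 4 with TGFB1+miR-9-LOF (8.92%) and 4 with miR-9-LOF (10.2%). Klf6, Klf9, Klf10 and Egr2 were past the fold in all 4 libraries, without division by the regional coverage given below. The members' median was 2.72 times the median coding promoter in Ctrl, 2.31 with TGFB1, 1.83 with TGFB1+miR-9-LOF and 1.83 with miR-9-LOF. All marked promoters had medians of 2.03, 1.78, 1.53 and 1.62, which is the nearer comparison for the 9 marked members. With a window of 25 kb in place of 10 kb, 5 members passed the fold in Ctrl, 3 with TGFB1, 2 with TGFB1+miR-9-LOF and 1 with miR-9-LOF, where 14.4%, 10.8%, 6.75% and 7.58% of all promoters did. With a window of 5 kb the counts were 9, 9, 7 and 7, where 25.8%, 20%, 12.8% and 15.4% did.

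Klf9 had the most contacts in Ctrl, 88.8 PPM, and 64.5 with TGFB1, 45.5 with TGFB1+miR-9-LOF and 50.4 with miR-9-LOF, beside library medians of 25.6, 24.0, 21.8 and 21.8. Klf6 followed with 86.7, 67.6, 50.9 and 52.3, and Klf10 with 84.4, 73.6, 51.1 and 46.3. The counting intervals of these 3 genes overlapped in Ctrl, so their order there is not resolved. The coverage of the surrounding 2 Mb, counted more than 20 kb from any coding start site, was 1.22 times that around the median promoter at Klf9 in Ctrl, 1.23 times at Klf10 and 0.851 times at Klf6. Klf6 had 3.39 times the contacts of the median promoter in Ctrl, Klf9 3.47 times and Klf10 3.30 times, and after division by that coverage the values were 3.99, 2.85 and 2.69.

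Egr2 and Egr3 each had 467 pairs in Ctrl, or 69.8 PPM of contacts, and parted in the other libraries. Egr2 had 69.3 with TGFB1, 57.0 with TGFB1+miR-9-LOF and 57.0 with miR-9-LOF, the highest values of the set in both libraries with miR-9 blocked, although its intervals overlapped those of Klf6, Klf9 and Klf10 in each and the order of the 4 is not resolved. Egr3 had 57.2, 39.99 and 42.3 there. The Egr2 region also had the highest coverage, 1.57 times that around the median promoter in Ctrl, 1.58 with TGFB1, 1.501 with TGFB1+miR-9-LOF and 1.45 with miR-9-LOF, and its 10-kb window shares sequence with that of Ado, whose start lies 11.1 kb away. The part of coverage and of Ado in the Egr2 counts was not tested. Divided by the coverage around it, the Egr2 contact ratio to the median promoter was 1.74 in Ctrl, 1.83 with TGFB1, 1.74 with TGFB1+miR-9-LOF and 1.81 with miR-9-LOF, below 2-fold and below that of Klf6 in each library. In TGFB1+miR-9-LOF it also lay below Klf5 (2.49), Egr3 (2.13), Klf10 (1.94), Klf4 (1.88) and Klf13 (1.83). In miR-9-LOF it lay below Egr3 (2.35), Klf5 (2.17), Klf13 (1.95) and Klf9 (1.86). Egr2 was thus not the highest of the set after this division.

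Klf5 had 69.3 PPM of contacts in Ctrl, 53.8 with TGFB1, 39.99 with TGFB1+miR-9-LOF and 34.4 with miR-9-LOF. Egr1 had 60.4, 45.7, 26.5 and 31.7, and Klf13 had 59.2, 46.5, 35.3 and 37.8. Klf4 had 52.0, 40.5, 31.4 and 27.9, and Klf2 had 31.7, 23.6, 23.5 and 26.5. Klf2 had the lowest value in each library and Klf4 the next in all but TGFB1+miR-9-LOF, where Egr1 lay between them. Klf2 was at most 1.24 times the median coding promoter in any library, and its Ctrl and miR-9-LOF intervals overlapped. Its window shares sequence with that of Gm10282, whose start lies 13.8 kb away, and the Egr1 window with that of Reep2, 19.2 kb away.

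**Figure D2:**
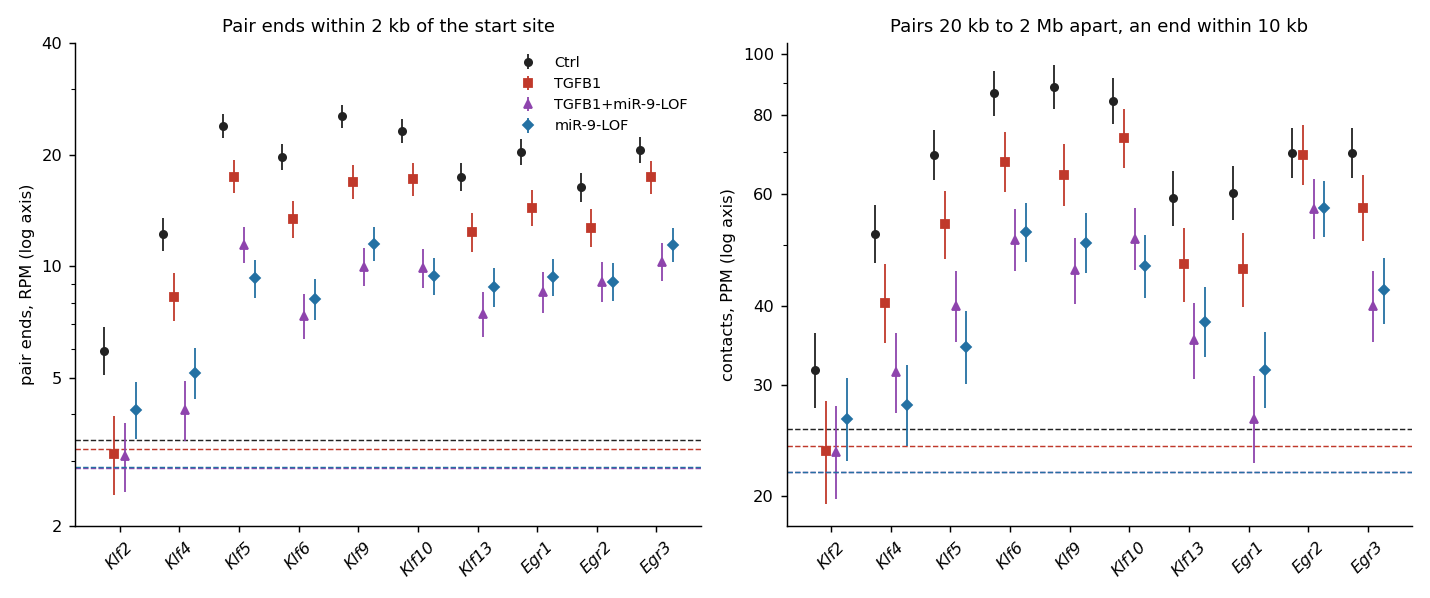
Levels of the 10 members in the 4 libraries. Left, pair ends within 2 kb of the start site, in RPM; right, contacts in PPM (pairs 20 kb to 2 Mb apart with an end within 10 kb). Both y axes are logarithmic, vertical bars are 95% counting intervals and dashed lines are the median coding promoter of each library (the lines of the 2 libraries with miR-9 blocked nearly coincide). In Ctrl contacts run from 31.7 PPM (Klf2) to 88.8 PPM (Klf9).

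Genes whose 8 values (ends and contacts relative to the median promoter, 4 libraries) lay nearest to those of Klf9 were Prkar1a, Rnf44 and Cdkn1b, at Euclidean distances of 0.13, 0.17 and 0.21 on the log2 scale. Prkar1a, a regulatory subunit of protein kinase A, had contact ratios of 3.27, 2.75, 2.02 and 2.27 in Ctrl and with TGFB1, TGFB1+miR-9-LOF or miR-9-LOF, where Klf9 had 3.47, 2.69, 2.08 and 2.31.

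Klf4 had an unusually large share of its reads in long-range pairs. Of the ends within 10 kb of its start site, 60.3% (56.2 to 64.3%) had their mate 20 kb to 2 Mb away in Ctrl, 65.5% (59.8 to 70.9%) with TGFB1, 67.0% (61.2 to 72.5%) with TGFB1+miR-9-LOF and 59.5% (53.8 to 65.1%) with miR-9-LOF. The median promoter was at 41.7%, 41.9%, 40.1% and 40.5%, and Klf4 ranked above 99.5% of promoters in Ctrl and above 99.9% in TGFB1+miR-9-LOF. Numerator and denominator of the share come from the same window and library. Klf6 had shares of 50.9%, 50.8%, 54.9% and 49.4%, and Klf10 of 52.3%, 54.8%, 50.4% and 48.6%, with intervals above the median promoter in all 4 libraries. The same held for Klf5, with 48.7%, 49.4%, 46.85% and 48.5%, and Klf13, with 47.9%, 48.9%, 48.1% and 46.5%. It also held for Egr2, with 48.1%, 51.1%, 51.8% and 52.3%, where the Ctrl and miR-9-LOF intervals overlapped. In Ctrl the share ranked above 84.8% of promoters at Klf5, 82.0% at Klf13 and 83.0% at Egr2. How many of all promoters had intervals above the median in every library was not counted. Klf2 was the lowest member in all 4 libraries, with 37.7%, 35.1%, 36.0% and 35.0%, and Egr3 was close to the median, from 37.6% to 41.8%.

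The members' surroundings differ greatly. Klf4 and Klf6 each had only 2 other coding start sites within 1 Mb. Only 0.776% of promoters had fewer, and the median promoter had 29. Klf5 and Klf9 had 6, Egr2 had 7, Klf13 had 10 and Klf10 had 13, while Egr1 had 36, Egr3 had 37 and Klf2 had 53. In Ctrl the members with 13 neighbours or fewer had shares of 47.9% or more, except Klf9 at 43.7%, and the 3 with 36 or more had 44.3% or less. Over all promoters the median share in Ctrl hardly moved with the number of neighbours, from 41.2% to 42.2% over 6 classes of density. Among the 311 promoters with 0 to 2 neighbours the median share in Ctrl was 41.6% and the 95th percentile 56.7%, which Klf4 exceeded.

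**Figure D3:**
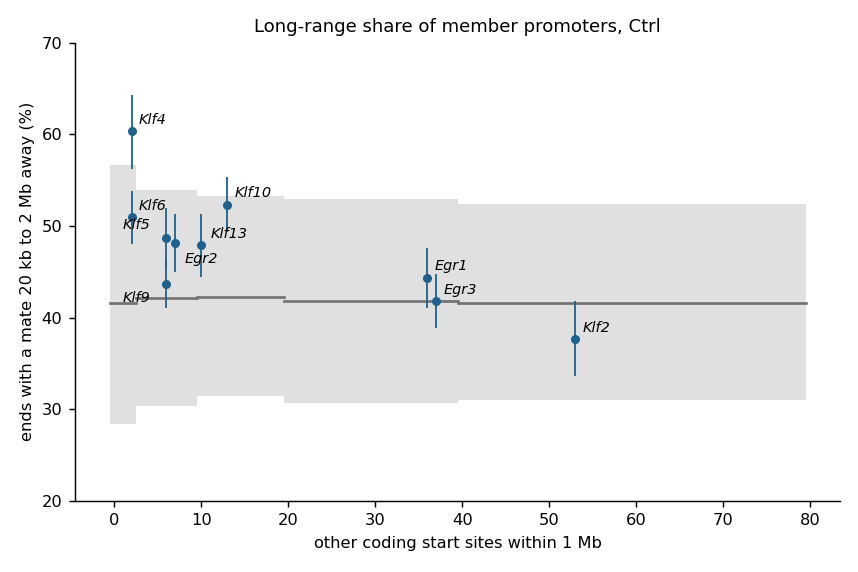
Share of ends near each start site whose mate lay 20 kb to 2 Mb away, in Ctrl, against the number of other coding start sites within 1 Mb. Points are the 10 members with 95% counting intervals, the grey line is the median of all coding promoters in that density range and the band spans their 5th to 95th percentiles. Klf4 (60.3%, 2 neighbours) lies above the band, and Klf2 (37.7%, 53 neighbours) below the line.

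The distal mates of Klf4 lay mostly upstream of the gene. Upstream of Klf4 no coding gene starts or ends for 1207.5 kb, as far as Actl7b, and that stretch took 78.7% of its mates in Ctrl, 79.9% with TGFB1, 78.6% with TGFB1+miR-9-LOF and 74.5% with miR-9-LOF. Compared with the number expected from the distance decay of all coding promoters, these were 1.67, 1.69, 1.67 and 1.59 times as many. The 135 kb on the other side, up to Rad23b, held only 0.297, 0.200, 0.188 and 0.366 times the expected number. Counting intervals excluded 1 on both sides in all 4 libraries, and the direction was the same when the coverage of the partner sequence entered the expected number. Here and below, the expected mates of a promoter sum to its own total. An excess in 1 stretch therefore goes with a shortage elsewhere, and the 2 sides are not separate results. How many other promoters had such an asymmetry was not counted. Klf4 mates were also far off, with a median distance of 292 kb in Ctrl, where the median promoter had 151 kb. The top Klf4 bin in Ctrl, 113 kb upstream, held 2.93, 1.61, 3.44 and 3.56 times the expected mates. Its interval with TGFB1 ran from 0.440 to 4.13.

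Klf10 showed the same kind of asymmetry over a shorter stretch. The 187 kb between Klf10 and Azin1, its upstream neighbour and the gene of an antizyme inhibitor, took 1.79, 2.03, 1.76 and 1.77 times the expected mates in Ctrl and with TGFB1, TGFB1+miR-9-LOF or miR-9-LOF, and the 64.7 kb towards Odf1 took 0.363, 0.283, 0.379 and 0.294 times. With coverage in the expected number the upstream ratios fell to 1.53, 1.74, 1.405 and 1.44. Within the upstream gap a single 10-kb bin stood out, chr15:38470001-38480000, 174 kb upstream of the Klf10 start and 44.3 kb from that of Azin1, which overlaps no annotated gene. It held 38 mates in Ctrl, 34 with TGFB1, 17 with TGFB1+miR-9-LOF and 22 with miR-9-LOF. Against distance these were 8.15, 11.6, 6.94 and 8.91 times the expected numbers, and against distance and coverage together 5.12, 7.64, 5.49 and 7.27 times. The bin was picked for its Ctrl value, so only the other libraries are a fresh look at it, and each of them stood above expectation with its interval. The Azin1 promoter itself, picked for its count in Ctrl, had 27 pairs with Klf10 in Ctrl, 9 with TGFB1, 8 with TGFB1+miR-9-LOF and 9 with miR-9-LOF. Relative to library depth these were 4.03, 1.88, 1.34 and 1.37 PPM, and against distance 3.78, 1.99, 2.11 and 2.35 times the expected numbers. The 10-kb bin with the Azin1 start was itself rich in ends, at 4.68 times the chromosome's median bin in Ctrl. Its mates were 4.83, 2.97, 3.03 and 3.49 times those expected from distance, and 1.73, 1.25, 1.76 and 1.66 times with its coverage added.

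Klf5 faced its relative Klf12, the next coding gene downstream. The 556 kb between them, free of coding genes, took 1.55, 1.47, 1.67 and 1.59 times the expected mates in Ctrl and with TGFB1, TGFB1+miR-9-LOF or miR-9-LOF. With coverage in the expected number these ratios fell to 1.27, 1.20, 1.39 and 1.35. The bin highest over expectation lay beyond this stretch, in an intron of Klf12 at chr14:99890001-99900000, 596 kb from the Klf5 start, with 12, 8, 5 and 3 mates. These were 16.9, 20.6, 13.0 and 8.18 times the expected numbers, each from few pairs, and the interval in miR-9-LOF ran from 1.69 to 23.9. The Klf12 start site is a further 390 kb away, and Klf12, a repressor of the CtBP-binding group, was not a marked promoter.

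Klf6 lies in the emptiest sequence of the set, with 1252 kb free of coding genes upstream to Akr1e1 and 678 kb downstream to Pitrm1. The upstream gap took 1.30, 1.33, 1.21 and 1.34 times the expected mates in Ctrl and with TGFB1, TGFB1+miR-9-LOF or miR-9-LOF and the downstream gap 0.786, 0.754, 0.872 and 0.709 times. Of its mates, 95.4 to 96.7% fell in bins with no coding gene, against 97.0 to 97.3% expected at those distances. Its top bin in Ctrl, chr13:6470001-6480000, lay 614 kb downstream with 12 mates in Ctrl, 8 with TGFB1, 2 with TGFB1+miR-9-LOF and 4 with miR-9-LOF, and the interval in TGFB1+miR-9-LOF reached from 0.516 to 15.4 times expectation. The second bin, 516 kb upstream with 13 mates in Ctrl, had 2, 1 and 4 in the others.

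Klf9 had its leading partners in Trpm3, the cation channel gene upstream. The bin chr19:22910001-22920000, 226 kb from the start and overlapping a Trpm3 exon, held 25 mates in Ctrl, 10 with TGFB1, 7 with TGFB1+miR-9-LOF and 9 with miR-9-LOF, or 7.05, 5.33, 4.41 and 4.63 times expectation. Its near neighbour at 206 kb, intronic in Trpm3, held 24, 11, 8 and 10. Both bins were picked for their Ctrl values. The 6 values of the other libraries had intervals above 1, and with coverage in the expected number those lay between 2.91 and 3.96.

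Among the other members, Klf13 and Egr2 had their highest bins nearer the start than Klf5 and Klf6 did. For Klf13 the 127 kb towards Otud7a took 1.64, 1.73, 1.48 and 1.32 times the expected mates, the last with an interval that included 1. With coverage in the expected number these ratios fell to 1.32, 1.43, 1.34 and 1.14. The 215 kb on the other side, towards Trpm1, took 0.429 (0.319 to 0.564), 0.641 (0.464 to 0.863), 0.840 (0.628 to 1.102) and 0.830 (0.633 to 1.07) times. The intervals of Ctrl and TGFB1 lay below 1 and those with miR-9 blocked included 1, but the TGFB1 interval overlapped both of the latter. With coverage in the expected number the values were 0.547, 0.741, 0.945 and 0.899. The Trpm1 promoter had 19, 8, 11 and 11 pairs with Klf13 in Ctrl and with TGFB1, TGFB1+miR-9-LOF or miR-9-LOF, or 2.84, 1.67, 1.85 and 1.67 PPM. Egr2 had 14, 7, 11 and 10 mates in the gene-free bin chr10:67760001-67770000, 227 kb downstream, which were 5.02, 3.47, 5.54 and 4.54 times expectation. Egr3 had 11, 14, 5 and 11 mates in an intron of Pebp4, 212 kb upstream, or 3.57, 7.64, 3.22 and 5.99 times. Among bins with at least 10 mates in Ctrl, Klf2 had none above 1.89 times expectation.

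Egr1 had the promoter partner with the most pairs. The Etf1 promoter, 72.2 kb downstream and that of a translation release factor, had 56 pairs with Egr1 in Ctrl, 39 with TGFB1, 19 with TGFB1+miR-9-LOF and 32 with miR-9-LOF. Relative to library depth these were 8.37, 8.14, 3.19 and 4.85 PPM. The 10-kb bin that Etf1 and Hspa9 share held 6.83, 7.90, 6.24 and 8.01 times the mates expected from distance. That bin was itself rich in ends, at 15.3 times the chromosome's median bin in Ctrl, and with its coverage in the expected number the values were 1.20, 1.56, 1.86 and 2.17.

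**Figure D4:**
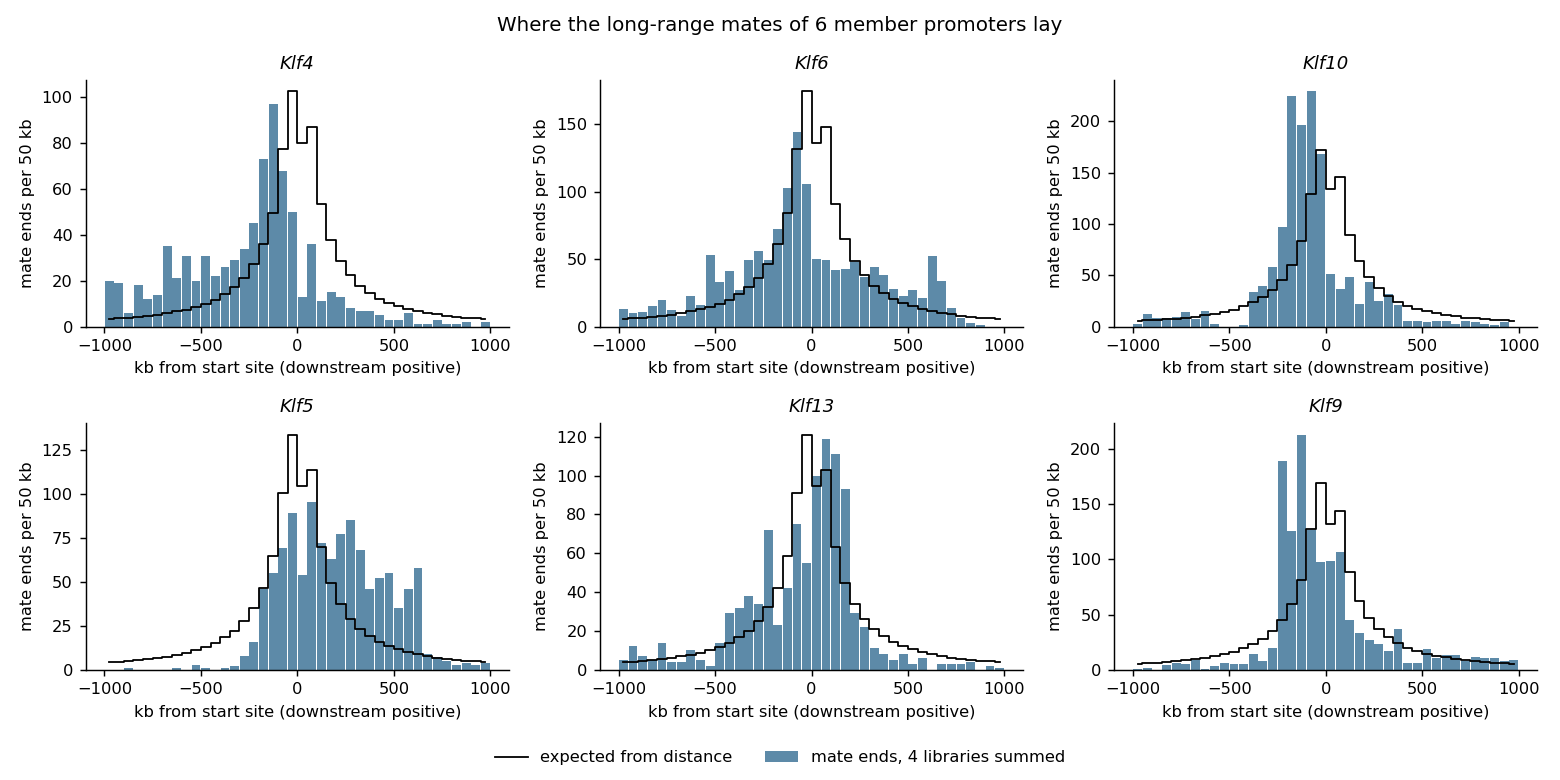
Mates of Klf4, Klf6, Klf10, Klf5, Klf13 and Klf9 within 1 Mb of the start site. Bars are mate ends per 50 kb summed over the 4 libraries, the line is the number expected from the distance decay of all coding promoters, and downstream of the start is positive. Mates of Klf4 and Klf10 lie mostly upstream and those of Klf5 mostly downstream.

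Gene-poor sequence as a whole took about what distance gave. The members had a median of 57.0% of their mates in bins overlapping no coding gene in Ctrl, 59.6% with TGFB1, 62.0% with TGFB1+miR-9-LOF and 60.0% with miR-9-LOF, where the median promoter had 24.3% to 27.2%. The shares expected from distance in Ctrl ran from 16.9% at Egr3 to 97.3% at Klf6. Relative to distance the members' medians were 0.980, 0.954, 1.01 and 0.956, and those of all promoters 0.794, 0.817, 0.852 and 0.861. Members above the median promoter numbered 8, 8, 8 and 6 of 10. The ratio cannot rise far above 1 where the expected share is already high, as at Klf6 and, at 89.3% in Ctrl, Klf4. Most members lie in gene-poor surroundings, so this count is a description only and no separate result. Egr3, in a dense locus, was the lowest in Ctrl, at 0.507, and Klf2 was at 0.788. With the coverage of the bins in the expected number these values were 0.818 and 1.44.

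The response to TGFB1 was read from the ratio of contacts between libraries, less the median log2 ratio of all promoters with at least 50 pairs, a level that all 10 members passed. In TGFB1 over Ctrl, no member lay at least 1.5-fold below the median change, as 0.417% of 20156 promoters did, and no member lay 1.5-fold above it, as 3.19% did. The members' median was -0.21 on the log2 scale, with 9 of 10 below the median promoter. Intervals lay below 0 for 3 members, Klf6 (-0.21), Klf9 and Egr1 (-0.25), against 11.6% of all promoters and 28.4% of marked promoters, so the members were close to the share of marked promoters. Klf9 had the lowest value, -0.31 (-0.52 to -0.11), from 594 pairs in Ctrl and 309 in TGFB1. Klf10, the TGFB-induced gene, was at -0.049 (-0.24 to 0.15), from 565 and 353 pairs. Egr2 alone lay above the median, at 0.14 (-0.070 to 0.34), from 467 and 332 pairs. Klf2 was at -0.28, Klf5 at -0.22, Klf4 at -0.21, Klf13 at -0.20 and Egr3 at -0.14, each with an interval that covered 0. All marked promoters together had a median of -0.16, and relative to them the members' median was -0.056.

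With miR-9 blocked, TGFB1-treated cells were compared with cells given TGFB1 alone, so this comparison shares the TGFB1 library with the one before. Egr1 was the only member at least 1.5-fold below the median change, as were 0.834% of 20155 promoters, and no member lay 1.5-fold above it, as 3.68% did. It had 219 pairs with TGFB1 alone and 158 with TGFB1+miR-9-LOF, a log2 ratio of -0.62 less the median (-0.92 to -0.32). Its ends within 2 kb, a narrower window of the same libraries, gave -0.35, and measured from the median of marked promoters its contacts were at -0.40, inside the 1.5-fold limit (0.0496% of all promoters lay past it). The call was also lost with the 25-kb window (0.101% of all promoters called), with pairs up to 500 kb (1.18%), with at least 200 pairs per promoter (0.216%) and against promoters in the same decile of pooled ends (0.982%). Intervals lay below 0 for 6 members, Klf5 (-0.26), Klf6 (-0.24), Klf9 (-0.34), Klf10 (-0.36), Egr1 and Egr3 (-0.35), against 14.1% of all promoters and 35.1% of marked promoters. The members' median was -0.25. Klf2 was at 0.16 (-0.21 to 0.53), Egr2 at -0.12 (-0.34 to 0.11), Klf4 at -0.20 (-0.50 to 0.097) and Klf13 at -0.23 (-0.51 to 0.045). Marked promoters had a median of -0.21 in this comparison, and 1.72% of them lay 1.5-fold below the median promoter.

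The widest gap was between miR-9-LOF and Ctrl, which shares its Ctrl library with the TGFB1 comparison. Klf4, Klf5, Klf10 and Egr1 lay at least 1.5-fold below the median change, where 3.89% of 20549 promoters did. That count of 4 was 1 with the 25-kb window (0.732% of all promoters), 1 with at least 200 pairs per promoter (1.21%), 0 against marked promoters (0.0584%) and 0 against promoters in the same decile of pooled ends (2.2%). Of the 10 members 8 had intervals below 0, where 26.8% of all promoters and 66.3% of marked promoters did, and no member lay 1.5-fold above the median, where 12.7% did. Klf5 was the lowest, at -0.76 (-0.99 to -0.52), from 464 pairs in Ctrl and 227 in miR-9-LOF. Egr1 was at -0.68 (-0.92 to -0.43), from 404 and 209 pairs. Klf4 was at -0.64 (-0.91 to -0.38), from 348 and 184 pairs, and Klf10 at -0.61 (-0.82 to -0.41), from 565 and 305 pairs. Klf9 was at -0.56, Klf6 and Egr3 at -0.47 each and Klf13 at -0.39, all 4 with intervals below 0. The exceptions were Klf2, at -0.0018 (-0.30 to 0.29), and Egr2, at -0.038 (-0.24 to 0.16). Marked promoters were lower too in that comparison, with a median of -0.34 and 10.1% of them 1.5-fold below the median promoter, as their share of all ends went from 12.03% to 6.27%. Measured from the marked median the members' median was -0.18, measured from promoters in the same decile of pooled ends it was -0.14, and no member was 1.5-fold below either. The marked promoters were themselves chosen partly on their Ctrl ends. The part of that choice, and of mark enrichment, in the members' values was not tested.

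Between the 2 libraries with miR-9 blocked, where the shares of ends at marked promoters were 5.43% and 6.27%, the members did not move together. In TGFB1+miR-9-LOF over miR-9-LOF, whose libraries also entered the comparisons above, no member lay 1.5-fold from the median change in either direction, as 2.48% of 20542 promoters did, and no interval left 0, as 10.2% did. The members' median was -0.016, with 5 above and 5 below. Values ran from -0.21 (-0.52 to 0.094) at Egr1 to 0.26 (-0.0075 to 0.53) at Klf5. Klf4 was at 0.22, Klf10 at 0.19, Egr2 at 0.043 and Klf6 at 0.0054, while Klf2 was at -0.13, Klf9 at -0.10, Klf13 at -0.053 and Egr3 at -0.037. Differences within such intervals were not detectable at this depth.

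**Figure D5:**
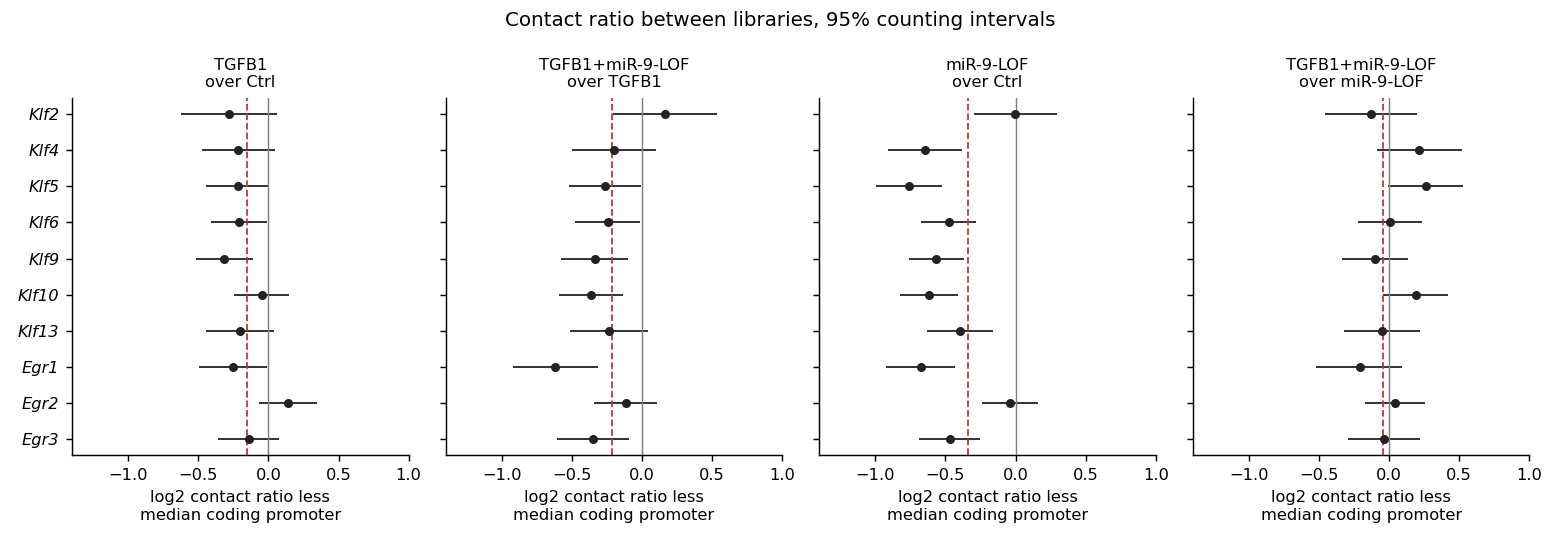
Contact ratios of the 10 members in the 4 comparisons, as log2 ratios less the median coding promoter. Horizontal bars are 95% counting intervals, the grey line is the median promoter and the red dashed line the median of marked promoters. In miR-9-LOF over Ctrl 8 of the 10 members lie wholly below the median promoter, as do 66.3% of marked promoters, and none in TGFB1+miR-9-LOF over miR-9-LOF.

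The TGFB1 ratio with miR-9 blocked was higher than that without at 9 of 10 members, after the median of all promoters was taken off. So it was at 49.998% of all promoters and at 69.8% of marked ones, whose median was 0.10, and 7 members lay above that marked median. For 2 members, Klf4 at 0.42 (0.036 to 0.81) and Klf5 at 0.47 (0.13 to 0.81), the interval of this difference lay above 0, as it did for 5.17% of 20149 promoters and for 10.3% of marked ones. Measured from the marked median the Klf4 interval ran from -0.065 to 0.71 and covered 0, and that of Klf5 from 0.030 to 0.71. Klf10 was at 0.23, Klf6 and Klf9 at 0.21 each, Klf2 and Klf13 at 0.14 each, Egr3 at 0.098, Egr1 at 0.038 and Egr2 at -0.099, less the median of all promoters. Klf4 and Klf5 had negative values in TGFB1 over Ctrl, -0.21 and -0.22, and positive ones in TGFB1+miR-9-LOF over miR-9-LOF, 0.22 and 0.26. Each of these values had an interval that covered 0, so a change of sign is not resolved.

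Relatives of the members, taken from lists of the family and its partners, gave a mixed picture. Of 10 other KLF genes, Klf3, Klf7 and Klf16 were marked, with contact ratios in Ctrl of 2.64, 4.23 and 4.404, so Klf7 and Klf16 stood above every member. Klf11, the nearest relative of Klf10, was unmarked at 0.579. Of 8 SP genes, Sp2 and Sp3 were marked, at 2.89 and 2.50, and Sp1 reached 2.00 in contacts without passing the level in ends. The EGR corepressors Nab1 and Nab2 were both marked, at 1.90 and 4.05, while Egr4 and Wt1 were not, at 0.965 and 0.485. Among 10 factors that act on immediate early promoters, 7 were marked, namely Srf, Mrtfa, Elk3, Elk4, Mef2a, Mef2d and Creb1. In TGFB1 over Ctrl Klf11 was 1.5-fold lower, at -0.64, where 0.417% of all promoters were. Wt1 (0.65), Sp4 (0.59) and Mef2c (0.79) were 1.5-fold higher there, where 3.19% were, and all 4 genes were unmarked with contact ratios below 1 in Ctrl. In miR-9-LOF over Ctrl the median of Nab1 and Nab2 was -0.48, that of the other KLF genes -0.21, that of the SP genes -0.071 and that of the 10 factors -0.34. Egr4 and Wt1 had a median of 0.29 in that comparison, and neither was called. At least 1.5-fold lower in that comparison were 0 of the other KLF genes, 1 SP gene, 0 of the 2 corepressors and 1 of the 10 factors, where 3.89% of all promoters were. At least 1.5-fold higher were 1 of the other KLF genes, 0 SP genes, 0 corepressors and 1 of the 10 factors, where 12.7% of all promoters were. Of the fibroblast markers 5 of 12 were 1.5-fold lower and 0 higher, with a median of -0.27, while the epithelial, endothelial and leukocyte markers had medians of 0.14, 0.26 and 0.11 and 0 lower calls, and 1 of the 7 epithelial markers, Nkx2-1 at 0.84, was 1.5-fold higher. Whether these shifts have a part in the members' values was not tested.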

How the data were processed

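The data were H3K4me3 HiChIP-seq pairs from MLg cells, with 1 library for each of the 4 conditions. The authors aligned reads to mm10 with HiC-Pro, removed duplicates and kept valid pairs, per the labels and the study's methods. Each deposited file lists the chromosome, position, strand and MboI fragment of both ends of every valid pair, and the deposited mapping quality score of each end, used here only as a filter. No end lay beyond a GRCm38 chromosome end, and at least 99.96% of chromosome 19 fragment numbers matched GRCm38 MboI sites within 1.

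Pairs on chromosomes 1 to 19 and X were read with pandas 2.3.3 and pyarrow 21.0.0, counted with numpy 2.4.6 and scipy 1.17.1 under Python 3.11.15 and plotted with matplotlib 3.10.9. Ends within 2 kb of a start site were taken per 1000000 ends (RPM), and contacts per 1000000 pairs (PPM) 20 kb to 2 Mb apart. Calls were 2-fold for levels and 1.5-fold for ratios between libraries, over promoters with at least 50 pairs. Expected mates per 10-kb bin followed the distance decay of all coding promoters, alone or weighted by the bin's coverage. Intervals were exact Poisson for counts and Clopper-Pearson for shares and ratios, and Wald on the log scale for differences of ratios, all at 95%. No p-value was computed, since no condition had a replicate. Windows were not corrected for MboI site number, GC content or mappability. Counting was tested on simulated data. All 10 members were named in every comparison. Partner bins were the 2 per gene highest over expectation in Ctrl among bins with at least 10 mates, and not all of them are described. The partner promoter was the one with the most pairs in Ctrl. For the member with the most contacts in Ctrl, the 3 nearest coding genes were named. The members, marker genes and related lists were chosen with earlier results of these data known. Tried alternatives were window, distance range, mapping quality of at least 30, the 5′ end of the gene record, other reference promoters, other minimum pair counts, fragment pairs counted singly and regional coverage.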

Additional observations from a re-analysis of the deposited data

Results flagged for a closer look

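Between these single libraries, the ratio of contacts with TGFB1 to those without it differed with the state of miR-9 at Klf4 and Klf5 by more than counting error, relative to the median of all promoters. With miR-9 blocked less without, after subtraction of the median promoter, Klf4 was at 0.42 (0.036 to 0.81) and Klf5 at 0.47 (0.13 to 0.81) on the log2 scale. Of all promoters 5.17% had such an interval above 0 and 5.21% below it, and of marked promoters 10.3% had it above. The median of marked promoters was 0.10, and measured from it the Klf4 interval ran from -0.065 to 0.71, which covers 0, and the Klf5 interval from 0.030 to 0.71. Each of the 4 libraries stood alone for its condition, so the spread between cultures was not measured. The share of ends at marked promoters was 12.03% in Ctrl, 8.87% with TGFB1, 5.43% with TGFB1+miR-9-LOF and 6.27% with miR-9-LOF, and its part in these differences was not tested.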

How the results depend on the processing

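Of 232 counts of members recomputed under an alternative, 207 stayed within 1.5 times their value and 25 did not; of 480 values of single members, 457 moved by no more than their counting interval reaches to either side, 23 moved further and 0 of those called changed sign. Against the median of marked promoters, 0 members were 2-fold higher in ends or contacts in any library. Few promoters may pass such a limit: the lowest number in Ctrl over the alternatives was 528 of 21646 in ends and 408 in contacts. With a 25-kb window the members 2-fold higher in contacts numbered 5 in Ctrl, 3 with TGFB1, 2 with TGFB1+miR-9-LOF and 1 with miR-9-LOF (14.4%, 10.8%, 6.75% and 7.58% of all promoters, beside 18.6%, 13.9%, 8.92% and 10.2% with 10 kb), and with a 5-kb window 7 in each library with miR-9 blocked (12.8% and 15.4% of all promoters). In TGFB1+miR-9-LOF over TGFB1, 0 members were 1.5-fold lower with the 25-kb window, with pairs up to 500 kb, against marked promoters, against the same decile of pooled ends, or with at least 200 pairs. In miR-9-LOF over Ctrl the count was 1 with the 25-kb window, 0 against marked promoters, 0 against the same decile and 1 with at least 200 pairs. In TGFB1+miR-9-LOF over miR-9-LOF, 1 member lay below the reference with the 25-kb window. Members above 1 in gene-poor bins in Ctrl numbered 4, and 8 when bin coverage entered the expected number. Without coverage, the Egr2 ratio of 1.02 ranked above 84.0% of promoters in Ctrl. The share of all promoters above 1 with coverage was not counted. The cause of the difference between 4 and 8 was not tested. The members' median in miR-9-LOF over Ctrl ran from -0.54 to -0.14 over the alternatives, and in TGFB1 over Ctrl from -0.23 to -0.048. Over all promoters, the number 1.5-fold lower in miR-9-LOF over Ctrl ran from 12 to 1184, beside 800, and in TGFB1+miR-9-LOF over TGFB1 from 10 to 408, beside 168. Promoters 2-fold higher in contacts in Ctrl ran from 408 to 5584, beside 4030.

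No paired analysis was possible because each condition had 1 library, and leaving out a library was not possible for the same reason. Depth limits the partner bins, many of which rest on fewer than 10 pairs per library.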
